A study of Rattus norvegicus with 72 samples.

Results

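Lungs of filtered-air rats from the H set and from the L set were compared 27 days after the last inhalation: 6 air H lungs against 6 air L lungs, 12 of the 72 libraries of the series, chosen by the day, treatment and set letter in the sample titles. In the same study other rats inhaled diesel exhaust particles (DEP), and in those animals the letter goes with the dose, H with 1000 µg/m3 and L with 200 µg/m3. All 12 air animals were adult male Sprague-Dawley rats that breathed filtered air for 6 hours a day on 4 days and gave 1 piece of lung each. For air animals the labels do not say what the letter stands for, and anything else that differed between the sets cannot be told apart from it. The air H animals carry the numbers 017 to 020, 041 and 042, and the air L animals the numbers 081 and 083 to 087. Exposed H and exposed L lungs of day 27, and air H and air L lungs of days 7 and 1, 6 libraries in each group, were used beside them.

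A lung holds conducting airways, lined by ciliated cells that move mucus and by club cells that secrete secretoglobins, and a parenchyma of alveoli, whose thin type I cells face a dense capillary bed while type II cells make surfactant. Elastic fibres, fibrillar collagens and basement membranes hold both together and are made largely by fibroblasts, smooth muscle and pericytes. A piece of lung carries these parts in unequal amounts, so genes of one compartment can differ together between pieces. In such bulk RNA, fewer cells of a type and less RNA per cell cannot be told apart.

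Each air library held between 3850245 and 6520180 reads counted to genes, with a median of 5506747 in air H and 4731735 in air L. No 2 libraries of a group were identical among 30 pairs. Type II (Sftpc), type I (Ager), endothelial (Pecam1) and club cell (Scgb1a1) markers were present in all 12 lungs. Marco, a scavenger receptor of alveolar macrophages, is listed at 0 in all of them, while the macrophage glycoprotein gene Cd68 had 25.6 to 33.1 counts-per-million (CPM) in air H and 22.1 to 29 CPM in air L. Some genes that every cell uses are also near 0 in the deposited counts, with 0 counts over all air H lungs and 1 over all air L lungs for Rps9 and for Rpl35a, and Col1a2 had 4 and 3. A count at or near 0 in every lung, as for Krt5 too, therefore sets no limit on expression. Myl7 is unlike these, with no count in 2 air H lungs but 108 counts over all air H lungs and 269 over all air L lungs.

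Of 14761 genes tested, 2071 (14%) differed between air H and air L at an adjusted p below 0.05 (edgeR quasi-likelihood test, Benjamini-Hochberg), 1317 (8.92%) of them higher and 754 (5.11%) lower in air H. The CPM of the 6 air H lungs lay wholly above those of the 6 air L lungs in 772 genes (5.23%) and wholly below in 408 (2.76%). The differences were small. The median log2 fold change, air H minus air L, was 0.41 among the genes called higher and -0.27 among those called lower, and 37 of the higher and 9 of the lower calls reached a 2-fold change. No gene passed when a change beyond 1.5-fold was asked for. The first principal component of the 12 lungs took 21.6% of their variance, and on it the air H lungs scored 11.8 to 17.8 against -25.6 to -5.87 for the air L lungs.

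The calls were not spread evenly over genes. Among the quintile of genes with the longest span in the genome 14.2% were called higher and 3.48% lower, against 5.69% and 5.84% in the quintile with the shortest span. Among the quintile with the highest counts 14.4% were called higher and 11.2% lower, against 2.30% and 0.847% in the lowest quintile. The part of gene span and of depth in the results that follow was not tested.

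Genes of the airway lining were mostly lower in air H. Of 83 airway genes tested, 15 were called lower (18.07%, beside 5.11% of all genes) and 1 higher (1.2%, beside 8.92%). Of the 83, 76 had a negative log2 fold change, with a median of -0.34 beside one of -0.0049 over all genes tested. The 1 gene called higher was Muc1, a membrane mucin also made by alveolar cells, with 115 to 151 CPM in air H and 67.5 to 107 CPM in air L (log2 0.56, SE 0.14, adjusted p 0.011). Matrix genes went the other way, with 20 of 98 called higher (20.41%) and 4 lower (4.08%) and a median of 0.15. Parenchymal genes were between, with a median of 0.06. The sizes depended on the air H animals. With animals 017 to 020 alone the airway median was -0.53 and the matrix median 0.20, and with animals 041 and 042 alone they were -0.15 and 0.018, with no airway gene called lower. The matrix sums of animals 041 and 042, at 23736 and 25020 CPM, lay inside the air L range of 22212 to 25435 CPM.

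**Figure D1:**
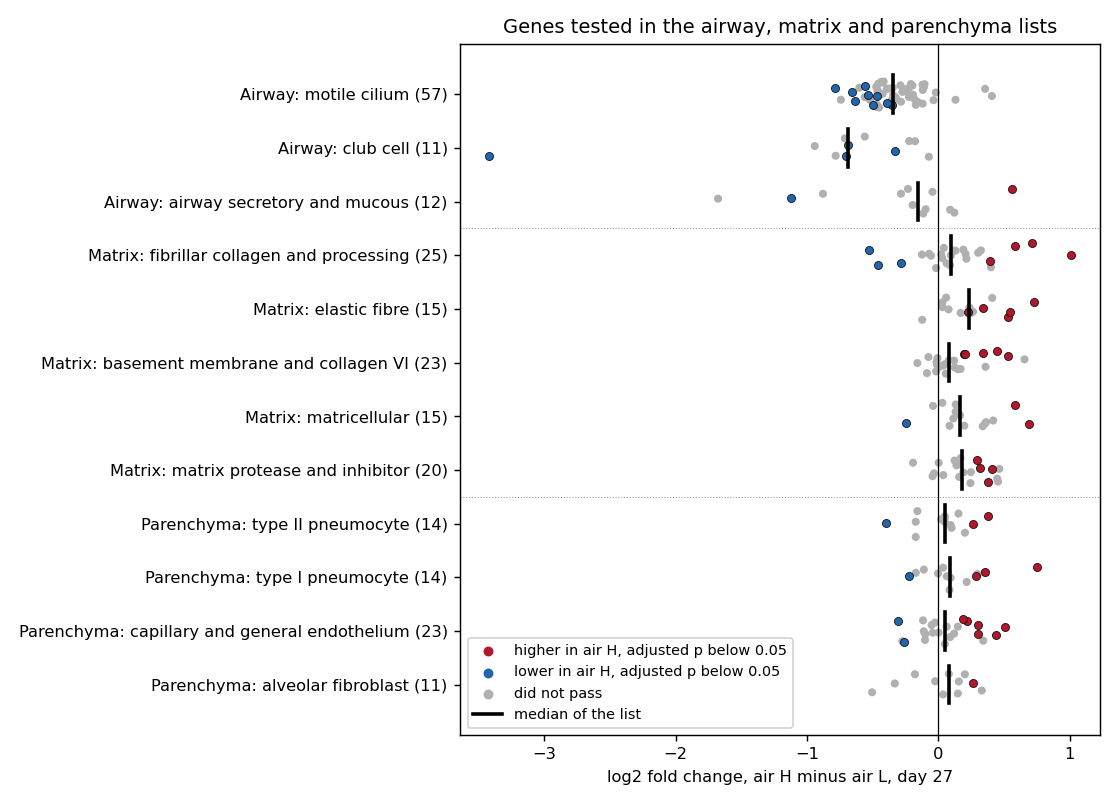
Log2 fold change, air H minus air L at day 27, of every gene tested in the airway, matrix and parenchyma lists, 1 point a gene, with the number tested in brackets and the list median as a black bar. Motile cilium and club cell genes lie mostly left of 0, with medians of -0.35 and -0.69, while the elastic fibre median is 0.24 and the type I and type II pneumocyte medians are 0.09 and 0.05. The point at -3.42 is Scgb3a1.

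Motile cilium genes, which build the axoneme and its dynein motors, held 57 tested members, of which 54 had a negative log2 fold change. Of the 57, 9 were called lower (15.79%, beside 5.11% of all genes) and none higher. Their median was -0.35. Summed over the list, air H lungs had 1484, 1983 and 2313 CPM as the lowest, median and highest value, and air L lungs 1812, 2353 and 3169 CPM, so the sums overlapped. The 4 lowest air H sums belonged to animals 017 to 020, and animals 041 and 042 had 2287 and 2313 CPM. Only 017 and 018 lay below the air L range.

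Tppp3, a tubulin-binding protein abundant in ciliated cells, was the 1 member whose ranges did not overlap. It had 291 to 352 CPM in air H, median 335, and 384 to 461 CPM in air L, median 423 (log2 -0.35, SE 0.08, adjusted p 0.0040). Foxj1, the transcription factor that switches on motile cilium genes, had 11.6, 22.6 and 30.1 CPM as lowest, median and highest in air H, and 22.7, 29.1 and 38.3 CPM in air L (log2 -0.54, SE 0.17, adjusted p 0.035), with overlapping ranges. Dynlrb2, a dynein light chain, had a median of 11.7 CPM in air H and 17.1 CPM in air L (log2 -0.64, SE 0.17, adjusted p 0.015). Ccdc39, a structural protein of the axoneme, had a median of 23.1 CPM in air H and 29.7 CPM in air L (log2 -0.46, adjusted p 0.026). Mlf1, Capsl, Ccdc153, Ak8 and Fam183b were the other 5 called lower, with log2 fold changes from -0.78 to -0.39.

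The members that did not pass include most of the heavy motor genes. Dnah5, the outer arm dynein heavy chain, was at -0.42, Dnah9 at -0.32 and Dnah11 at -0.16 on the log2 scale, and Rfx3, a regulator of ciliary genes, at -0.18. The 3 members on the positive side were Rfx2 (0.41), Lrrc23 (0.36) and Dnai2 (0.13), none of which passed. The number of cilium genes called hung on single lungs. It was 3 without air H 017, 5 without air H 018, 1 without air L 081 and 16 without air L 084, and the Foxj1 call was lost without air H 017, 018 or 019 or air L 081, 083 or 087 (adjusted p 0.0549 to 0.0898). Without air L 081 the log2 fold change of Mlf1 was -0.46 (adjusted p 0.067), that of Dynlrb2 -0.46 (adjusted p 0.061) and that of Capsl -0.45 (adjusted p 0.060), and Capsl was also lost without air H 017 (-0.45, adjusted p 0.051).

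The promoters of 2 cilium genes called lower are given because they carry one arm of the X-box, the element that RFX factors bind in promoters of ciliary genes. Each line is the 250 bases before the start site, 5′ to 3′ on the gene's strand, from the RefSeq promoter table for GRCr8, with the arm (GTTGCCA or GTTGCTA, on either strand) in capitals. Dynlrb2 lies at chr19:61428830-61429079 on the plus strand and Capsl at chr2:60121912-60122161 on the plus strand.
Dynlrb2: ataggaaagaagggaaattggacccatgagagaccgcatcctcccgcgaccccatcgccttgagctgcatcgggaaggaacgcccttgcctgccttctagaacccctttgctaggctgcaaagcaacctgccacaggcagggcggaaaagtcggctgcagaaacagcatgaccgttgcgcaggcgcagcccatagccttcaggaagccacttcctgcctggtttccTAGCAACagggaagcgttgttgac
Capsl: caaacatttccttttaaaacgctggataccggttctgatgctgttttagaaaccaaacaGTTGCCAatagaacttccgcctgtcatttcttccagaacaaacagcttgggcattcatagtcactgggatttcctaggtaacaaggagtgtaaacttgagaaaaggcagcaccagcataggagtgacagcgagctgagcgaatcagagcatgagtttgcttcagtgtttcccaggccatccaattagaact
The table held 37 of the 57 cilium genes, and 20 of those 37 promoters (54.05%) had such an arm in this window, beside 638 of the 9984 promoters of all tested genes (6.39%) and 1752 of 27457 in the whole table (6.38%). It was in 4 of the 5 promoters of cilium genes called lower and in 16 of the 32 of genes not called.

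Club cell genes were all on the negative side: 11 of 11 tested, with a median of -0.69. Of these, 4 were called lower (36.36%, beside 5.11% of all genes). Scgb3a2, a secretoglobin of the bronchiolar lining, had 62.2, 98.8 and 103 CPM as lowest, median and highest in air H and 103, 127 and 262 CPM in air L (log2 -0.70, SE 0.18, adjusted p 0.015). Its ranges nearly met but did not overlap. Its log2 fold change was -0.46 without air L 081, still called (adjusted p 0.027). Aldh1a1, a retinaldehyde dehydrogenase, had 340 to 402 CPM in air H and 400 to 556 CPM in air L (log2 -0.33, SE 0.08, adjusted p 0.0054). Cldn10, a tight junction claudin, had a median of 4.63 CPM in air H and 7.50 CPM in air L (log2 -0.69, SE 0.19, adjusted p 0.015), a call lost without air L 081 (log2 -0.59, adjusted p 0.0501).

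Scgb3a1, a secretoglobin of larger airways, had the largest log2 fold change of the list, and a single lung carried it. Its lowest, median and highest values were 0.496, 1.39 and 4.06 CPM in air H and 0.788, 5.97 and 95.9 CPM in air L (log2 -3.42, SE 0.92, adjusted p 0.017). Without air L 081, the lung at 95.9 CPM, the fold change was -1.92 and no longer called (adjusted p 0.098). Scgb1a1, the defining club cell secretoglobin, did not pass, with 1449 to 2413 CPM in air H and 1492 to 2415 CPM in air L (log2 -0.07, SE 0.15, adjusted p 0.79). The summed club cell list ran from 2609 to 3759 CPM in air H and from 2874 to 4446 CPM in air L.

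Mucous and secretory genes held 12 tested members, 1 called higher (Muc1) and 1 lower, with a median of -0.16. Each call is 8.33% of the list, near the 8.92% higher and 5.11% lower of all genes. Agr2, a disulfide isomerase needed for mucin folding, was the one called lower, with medians of 2.90 CPM in air H and 5.71 CPM in air L (log2 -1.12, SE 0.32, adjusted p 0.020). The Agr2 call was lost without air H 017 (adjusted p 0.052) or air L 081, where the log2 fold change was -0.71 (adjusted p 0.088). Muc5b, the gel-forming mucin of the lower airway, had a median of 12.7 CPM in air H and 11.5 CPM in air L, with 1 air L lung at 70.4 CPM, and did not pass. Of 8 basal cell genes 2 were tested, and Krt5, the defining keratin, had 4 counts in all air H lungs together and 3 in all air L lungs. Krt15 was called lower (log2 -1.22, SE 0.40, adjusted p 0.042), a call lost in 7 of 12 leave-outs: air H 017, 018, 019 and 041 and air L 081, 083 and 086 (adjusted p 0.0614 to 0.136). In all 16 airway calls, the count was 8 without air H 017 and 4 without air L 081.

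Elastic fibre genes were mostly higher in air H. Of 15 tested, 5 were called higher (33.33%, beside 8.92% of all genes) and none lower. A positive log2 fold change was found in 14, and the median was 0.24. The summed list was 2922 to 3325 CPM in air H and 2199 to 2768 CPM in air L, with no overlap. Eln, the gene of tropoelastin, had 504, 577 and 716 CPM as lowest, median and highest in air H and 328, 378 and 549 CPM in air L (log2 0.53, SE 0.13, adjusted p 0.0083). Of 4 genes in the list named for latent TGF-beta binding proteins, 3 were called higher, and Ltbp1 was at 0.08 and did not pass. Ltbp4 had 436 to 569 CPM in air H and 255 to 379 CPM in air L (log2 0.73, SE 0.18, adjusted p 0.010), and Ltbp2 had 410 to 489 CPM in air H and 308 to 399 CPM in air L (log2 0.34, SE 0.07, adjusted p 0.0023). Ltbp3 (log2 0.55, adjusted p 0.025) and the microfibril gene Fbn1 (log2 0.23, adjusted p 0.032) were called too. Both of those calls were lost in some leave-outs, Ltbp3 without air H 042 or air L 081 or 086 and Fbn1 without air H 017, 018 or 020 or air L 081, 083 or 085, and the elastic fibre count was 3 without air L 081.

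Collagen genes split. Col1a1, the main fibrillar collagen chain, had 169 to 227 CPM in air H, median 192, and 66.2 to 124 CPM in air L, median 91.1, with every air H lung above every air L lung (log2 1.01, SE 0.26, adjusted p 0.012). Col5a1, a minor fibrillar collagen, had 187 to 214 CPM in air H and 118 to 163 CPM in air L (log2 0.39, SE 0.08, adjusted p 0.0015). The proteoglycans Bgn (log2 0.58, adjusted p 0.017) and Fmod (log2 0.71, adjusted p 0.018) rose as well. Against them, 3 members fell. P4ha1, a prolyl hydroxylase of collagen, had 124 to 153 CPM in air H and 167 to 207 CPM in air L (log2 -0.46, SE 0.09, adjusted p 0.0014), and P4ha2 (log2 -0.28) and the proteoglycan Dcn (log2 -0.53) were called lower with overlapping ranges. Col3a1 was at 0.19 and did not pass. Over the 25 collagen and processing genes, 4 were called higher (16%) and 3 lower (12%), beside 8.92% and 5.11% of all genes. The median was 0.10.

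In the basement membrane list 5 of 23 rose (21.74%, beside 8.92% of all genes) and none fell. Nid1, a laminin-to-collagen linker, had 259 to 316 CPM in air H and 195 to 219 CPM in air L (log2 0.45, SE 0.07, adjusted p 0.00038), and the laminin chain Lama5 had 396 to 439 CPM in air H and 284 to 355 CPM in air L (log2 0.34, SE 0.06, adjusted p 0.00049). Both were separated with no overlap. Nid2 (0.53), Col4a1 (0.20) and Lamc1 (0.19) were the other 3 on the log2 scale. The last 2 calls were lost in leave-outs, Col4a1 without air H 017, 019 or 020 or air L 081 or 086 and Lamc1 without air H 018 or 020. Among 15 matricellular genes 2 were called higher (13.33%) and 1 lower (6.67%), beside 8.92% and 5.11% of all genes. Fn1, fibronectin, had 1017 to 1314 CPM in air H and 668 to 1022 CPM in air L (log2 0.58, SE 0.14, adjusted p 0.0076). Ctgf, a growth factor binding protein, rose by 0.69 (SE 0.15, adjusted p 0.0057), while Postn was called lower (log2 -0.24, adjusted p 0.042). The Postn call was lost in 8 of 12 leave-outs, by air H 019, 020, 041 and 042 and air L 081, 083, 084 and 086. Of 20 protease and inhibitor genes 4 were called higher (20%) and none lower. The membrane metalloprotease Mmp15 had 129 to 149 CPM in air H and 93.9 to 119 CPM in air L (log2 0.41, SE 0.08, adjusted p 0.00090), and Timp2, a metalloprotease inhibitor, had a median of 214 CPM in air H and 178 CPM in air L (log2 0.29, adjusted p 0.0040). The calls of Mmp19 (log2 0.37, adjusted p 0.047) and Adam12 (log2 0.32, adjusted p 0.048) were weak, each lost in 10 of 12 leave-outs.

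Cells that make or border this matrix were measured alongside. Of 9 pericyte genes 4 were called higher (44.44%, beside 8.92% of all genes) and none lower. The receptor Pdgfrb led, with 215 to 228 CPM in air H and 161 to 196 CPM in air L (log2 0.34, SE 0.06, adjusted p 0.00088). Of 12 smooth muscle genes 3 were called higher (25%) and none lower. Synpo2, an actin-binding protein, had 36.5 to 56.3 CPM in air H and 23.5 to 32.1 CPM in air L (log2 0.74, SE 0.13, adjusted p 0.00078). The summed smooth muscle list ran from 1780 to 2176 CPM in air H and from 1481 to 1957 CPM in air L, and the summed pericyte list from 932 to 1040 CPM in air H and 753 to 884 CPM in air L. Mesothelial genes, from the surface of the lung, had 1 of 9 called higher (11.11%, beside 8.92% of all genes). Mesothelial sums were 246 to 359 CPM in air H and 184 to 328 CPM in air L. Cardiac muscle genes, from the sleeve of the pulmonary veins, had 0 of 9 called. Still, 8 of the 9 had a negative log2 fold change, with a median of -0.67. Their sums overlapped, with 135 to 329 CPM in air H and 140 to 423 CPM in air L. Their defining marker Myl7 had 108 counts over all air H lungs and 269 over all air L lungs. It had no count in 2 air H lungs. The part of these cells in the matrix result was not tested.

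The 3 defining markers of alveolar and capillary cells did not pass the test. Sftpc, the surfactant protein of type II cells, had 5317 to 7522 CPM in air H and 3664 to 7181 CPM in air L (log2 0.10, SE 0.13, adjusted p 0.68). Ager, the receptor that marks type I cells, had 1442 to 1762 CPM in air H and 1409 to 1788 CPM in air L (log2 -0.11, SE 0.08, adjusted p 0.39). Pecam1, the endothelial adhesion gene, had 263 to 311 CPM in air H and 242 to 389 CPM in air L (log2 -0.10, SE 0.08, adjusted p 0.43). The ranges of all 3 overlapped.

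Other parenchymal genes were called: of the 62 tested, 12 were higher (19.35%) and 4 lower (6.45%) in air H. Over all genes these shares were 8.92% and 5.11%, and 20.41% of matrix genes were called higher. Cldn18, the alveolar tight junction claudin, had 405 to 499 CPM in air H, median 444, and 209 to 372 CPM in air L, median 242 (log2 0.75, SE 0.16, adjusted p 0.0033), and all air H lungs were above all air L lungs. Kdr, the main VEGF receptor, had 670 to 809 CPM in air H and 442 to 569 CPM in air L (log2 0.51, SE 0.10, adjusted p 0.0025). Cdh5, the endothelial cadherin, had 604 to 712 CPM in air H and 494 to 586 CPM in air L (log2 0.30, SE 0.07, adjusted p 0.0041), and Eng, a TGF-beta co-receptor, 593 to 764 CPM in air H and 409 to 573 CPM in air L (log2 0.44, SE 0.10, adjusted p 0.0042). Of 23 endothelial genes 6 were called higher (26.09%) and 2 lower (8.7%). The 2 lower were Apln, a peptide ligand (log2 -0.26), and the tight junction gene Cldn5 (log2 -0.31). Type II genes gave Nkx2-1, the lung identity factor (log2 0.38, adjusted p 0.034), and Etv5 (log2 0.27, adjusted p 0.023) higher and the lysozyme gene Lyz2 lower (log2 -0.40, adjusted p 0.047). These 3 calls were weak: Etv5 was lost without air H 018 or air L 085, and Nkx2-1 and Lyz2 were each lost in 9 of 12 leave-outs. Over all parenchymal genes the count of 16 fell to 10 without air H 017, air H 041 or air L 083.

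**Figure D2:**
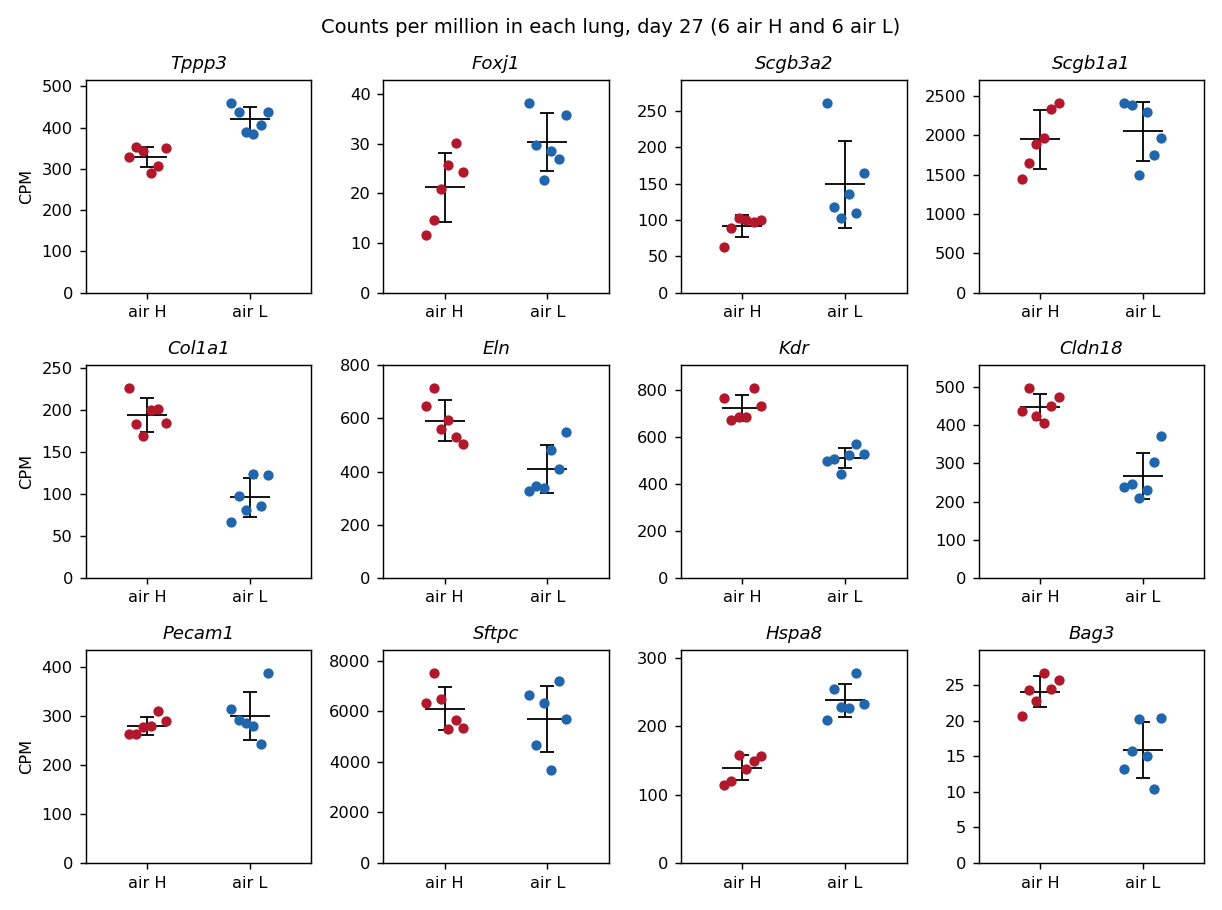
CPM of 12 genes in each of the 6 air H and 6 air L lungs of day 27, 1 point a lung, with the mean as a bar and the SD as whiskers. Tppp3 and Hspa8 are lower and Col1a1, Kdr, Cldn18 and Bag3 higher in air H with no overlap, Foxj1 and Eln differ with overlap, and Scgb1a1, Pecam1 and Sftpc did not pass the test. Scgb3a2 is lower in air H with ranges that nearly met but did not overlap, and has 1 air L lung, 081, at 262 CPM.

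Heat shock chaperones, which keep other proteins folded, were mostly lower in air H. Of 14 heat shock genes tested 9 were called lower (64.29%, beside 5.11% of all genes) and 2 higher (14.29%, beside 8.92%). The summed list was 1842 to 2184 CPM in air H and 2240 to 2759 CPM in air L, with no overlap. Hspa8, the constitutive Hsp70, had 115, 144 and 158 CPM as lowest, median and highest in air H and 209, 230 and 278 CPM in air L (log2 -0.77, SE 0.12, adjusted p 0.00054). Hsph1, the Hsp110 that exchanges nucleotide on Hsp70, had 79.2, 121 and 135 CPM in air H and 169, 189 and 274 CPM in air L (log2 -0.84, SE 0.17, adjusted p 0.0027). Dnaja1 (log2 -0.73), an Hsp70 co-chaperone, and Chordc1 (log2 -0.63), an Hsp90 partner, were separated in the same way. Hspa1b, the inducible Hsp70, had 2.97 to 9.47 CPM in air H and 9.46 to 104 CPM in air L (log2 -2.69, SE 0.58, adjusted p 0.0046). The 2 that rose were Hspb1, a small heat shock protein (log2 0.56, SE 0.12, adjusted p 0.0030), and Bag3, an Hsp70 co-chaperone, with 20.7 to 26.7 CPM in air H and 10.5 to 20.4 CPM in air L (log2 0.59, SE 0.14, adjusted p 0.0042).

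The promoters of 2 that fell and of the 2 that rose are given because all 4 carry the same heat shock element core, GAANNTTC, a palindrome that reads the same on both strands. As above, each line is the 250 bases before the start site from the RefSeq table for GRCr8, with the core in capitals. Hspa8 lies at chr8:50080264-50080513 and Hsph1 at chr12:10427118-10427367, both on the plus strand, Bag3 at chr1:192533210-192533459 on the plus strand and Hspb1 at chr12:26432302-26432551 on the minus strand.
Hspa8: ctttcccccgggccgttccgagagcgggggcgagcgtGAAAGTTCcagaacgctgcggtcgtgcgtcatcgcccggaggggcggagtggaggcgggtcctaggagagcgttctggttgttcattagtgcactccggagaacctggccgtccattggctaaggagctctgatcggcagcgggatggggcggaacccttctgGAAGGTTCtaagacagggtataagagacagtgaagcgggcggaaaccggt
Hsph1: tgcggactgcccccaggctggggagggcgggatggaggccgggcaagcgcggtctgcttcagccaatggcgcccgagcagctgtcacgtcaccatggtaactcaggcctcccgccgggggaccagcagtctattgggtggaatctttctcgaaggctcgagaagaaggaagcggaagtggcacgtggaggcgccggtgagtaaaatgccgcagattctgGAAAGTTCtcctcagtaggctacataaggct
Bag3: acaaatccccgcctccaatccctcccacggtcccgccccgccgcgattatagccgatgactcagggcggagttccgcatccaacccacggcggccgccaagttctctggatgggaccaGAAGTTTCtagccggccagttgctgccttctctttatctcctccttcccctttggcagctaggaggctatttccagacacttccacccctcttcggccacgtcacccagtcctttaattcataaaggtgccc
Hspb1: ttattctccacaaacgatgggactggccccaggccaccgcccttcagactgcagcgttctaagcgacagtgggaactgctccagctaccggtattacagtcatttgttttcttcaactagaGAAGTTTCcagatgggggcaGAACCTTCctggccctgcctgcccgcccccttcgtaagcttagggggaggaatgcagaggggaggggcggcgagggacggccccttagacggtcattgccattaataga
Hspa8 and Hspb1 have 2 cores each in this window. The table held 12 of the 14 heat shock genes and 8 of the 12 had the core, 6 of the 8 that fell and both that rose, beside 501 of 9984 promoters of all tested genes (5.02%). It thus stood in front of genes that differed in either direction.

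Ribosomal protein genes, transcribed in step in most tissues, were lower as a group in air H, with 74 of 80 negative and a median of -0.22. Of the 80, 28 were called lower (35%, beside 5.11% of all genes) and 3 higher (3.75%, beside 8.92%). Their sum was 13273 to 14892 CPM in air H and 14918 to 16803 CPM in air L, apart by a narrow margin under this scaling. With the scaling set over all 72 libraries the sums were 13144 to 14814 CPM in air H and 14706 to 16626 CPM in air L, which overlapped. Rps24 had 307 to 356 CPM in air H and 399 to 460 CPM in air L (log2 -0.38, SE 0.07, adjusted p 0.00078), and Rpl32 and Rpl11 were at -0.32 and -0.34. Rps16 broke from the group with the largest rise of all genes named here: 98.6, 133 and 201 CPM as lowest, median and highest in air H and 12.0, 21.7 and 61.1 CPM in air L (log2 2.31, SE 0.42, adjusted p 0.0014). Ribosomal protein genes have near-identical copies in the genome, so how reads were shared among them is uncertain. Of 72 nuclear-encoded respiratory chain genes 11 were called lower (15.28%, beside 5.11% of all genes), with a list median of -0.15. Another 4 were called higher (5.56%, beside 8.92% of all genes). Ndufb7, a complex I subunit, had 20.1 to 26.7 CPM in air H and 11 to 18.8 CPM in air L (log2 0.70, SE 0.14, adjusted p 0.0017), and Ndufa4l2, a relative of a complex IV subunit, was at 1.14, while Ndufs5 was at -0.47. The RNA component of RNase MRP, Rmrp, was lower, with 4301 to 5584 CPM in air H and 5571 to 6906 CPM in air L (log2 -0.36, SE 0.07, adjusted p 0.00090).

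**Figure D3:**
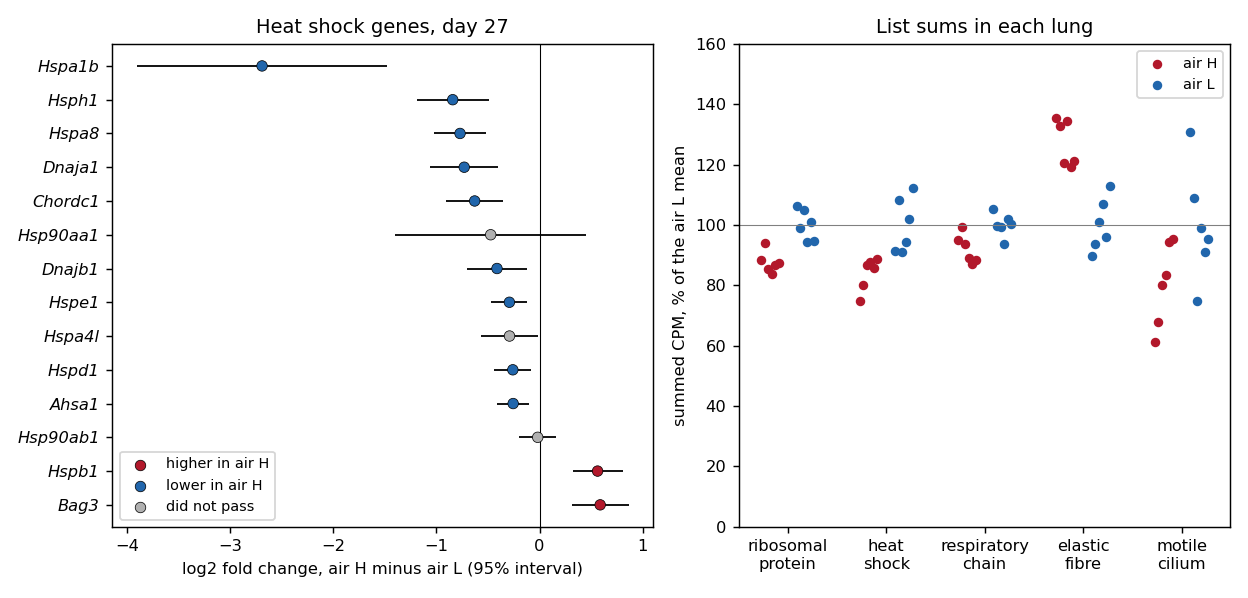
Left, log2 fold change of the 14 heat shock genes, air H minus air L at day 27, with 95% intervals. Right, summed CPM of 5 gene lists in each lung as a percentage of the air L mean, air H points left of air L points: heat shock sums lie lower and elastic fibre sums higher in air H with no overlap, ribosomal protein sums lie lower and overlap under a scaling set over all 72 libraries, and motile cilium sums overlap.

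Among well measured genes with non-overlapping ranges, the largest rises beyond Rps16 and Ndufa4l2 were single genes of different roles. Heyl, a Notch target and transcriptional repressor, had 9.10 to 21.7 CPM in air H and 3.66 to 7.69 CPM in air L (log2 1.47, SE 0.28, adjusted p 0.0016). Ecm1, a secreted matrix glycoprotein, had 137 to 181 CPM in air H and 36 to 98.4 CPM in air L (log2 1.40, SE 0.25, adjusted p 0.0012). Nfic, a nuclear factor I gene, was at 1.11, Agpat1, an acyltransferase of phospholipid synthesis, at 1.10, and Scamp3, a membrane trafficking protein, at 1.09. Tlr9, an endosomal DNA receptor (1.17), and Unc5d, a netrin receptor (1.08), also rose, as did Nlgn2, a synaptic adhesion gene, whose 1.35 became 0.76 without air H 042. Egr1, an immediate early gene, was at 1.09 (adjusted p 0.047), and its call was lost without any 1 of 11 lungs, all but air L 087.

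The falls were smaller. Cpne7, a copine, had 7.33 to 12.7 CPM in air H and 15.8 to 29.3 CPM in air L (log2 -1.16, SE 0.27, adjusted p 0.0067). Ggh, a folate hydrolase, was at -0.79, Cacybp, a chaperone partner, at -0.70, Chac2, a glutathione cyclotransferase, at -0.64, Efcab1, an EF-hand gene, at -0.62 and the small heat shock gene Hspb8 at -0.61. Tcp1-ps1 (-0.59) is a chaperonin pseudogene whose reads could come from the parent gene.

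Red cell genes were highest in 1 air H lung. Of 10 red cell genes 3 were called higher (30%, beside 8.92% of all genes). They were Slc4a1, the band 3 anion exchanger (log2 1.79), and the alpha globins Hba1 (0.86) and Hba2 (0.78), near-identical genes whose reads are hard to assign. Of the 10, 9 had a positive log2 fold change. Hbb, the defining red cell marker, had medians of 539 CPM in air H and 551 CPM in air L without scaling factors. Its ranges overlapped, with 461 to 1486 CPM in air H and 456 to 653 CPM in air L. The summed list was 1601 to 5058 CPM in air H and 1439 to 1692 CPM in air L, with the top value in air H 020. Without that lung the log2 fold changes were 1.15 for Slc4a1, 0.51 for Hba1 and 0.41 for Hba2, all still called (adjusted p 0.0042, 0.0016 and 0.012). Among 89 blood and immune genes 7 were called higher and none lower. The 7 are 7.865% of them, near the 8.92% of all genes called higher. None of 19 interferon, 26 cell cycle, 11 NRF2, 9 glucocorticoid or 5 aryl hydrocarbon receptor genes was called, beside 14% of all genes. At that share lists this short would hold few calls, so the absence of calls says little about them.

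The same set letters gave the opposite difference in other air animals of the study. A swap of the letters at 1 of the days, or a shared technical axis, cannot be told apart from a difference between animals in these files. This bears on every day 7 value below and on the direction of every day 27 value above. At day 7, 3653 of 14331 genes (25.5%) were called between air H and air L, and of the 2060 genes called at day 27 and tested at day 7 171 (8.30%) had the same sign, against 31.5% over all genes tested at both days. Both days called 1251 genes, 60.7% of the day 27 calls and 34.3% of those of day 7, and 1239 of them went in opposite directions. The genes higher in air H at day 27 had a median of -0.45 at day 7, and those lower had 0.19. In 1 model of both days, the difference itself differed between day 27 and day 7 for 4830 of 14910 genes (32.4%). These contrasts share no lung.

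Day 1 showed no such mirror. There 207 of 12304 genes (1.68%) were called between air H and air L, 44.5% of the day 27 calls tested had the same sign, beside 47.6% over all genes, and 1454 of 13088 genes (11.1%) differed between day 27 and day 1. Of 45 genes called at both days 16 had the same direction. Of 25 genes called at all 3 days, 0 kept 1 direction. Day 1 libraries were shallower.

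The reversal at day 7 took in some of the genes and lists that led at day 27, but not all. Rps16 was at 2.31 at day 27 and -4.35 at day 7, a difference of 6.65. Ecm1 was at 1.40 and -2.40, Scamp3 at 1.09 and -2.37, Agpat1 at 1.10 and -2.07, Cldn18 at 0.75 and -2.10, Kdr at 0.51 and -1.10 and Col1a1 at 1.01 and -1.22, each different between the days in the joint model. Ribosomal protein genes changed sign too, with a median of -0.22 at day 27 and 0.23 at day 7, where 35 of 78 were called higher (10.3% of all genes). The day 7 medians of matrix genes (0.0092), elastic fibre genes (-0.026) and heat shock genes (-0.026) lay near 0 and were not a reversal. Of 98 matrix genes 10 were called higher there and 17 lower, beside 10.3% and 15.2% of all genes. Of 15 elastic fibre genes 1 was called higher and 4 lower, and of 14 heat shock genes 0 and 3. Airway genes did not change sign as a whole, with a median of -0.34 at day 27 and -0.12 at day 7. The cilium median was -0.35 at day 27 and -0.16 at day 7, where 5 of 57 were called lower (15.2% of all genes), and the club cell median was -0.69 at day 27 and 0.05 at day 7, where 2 of 11 were called higher and 1 lower. Scgb1a1, not called at day 27, was lower in air H at day 7 (log2 -0.79, adjusted p 0.010).

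**Figure D4:**
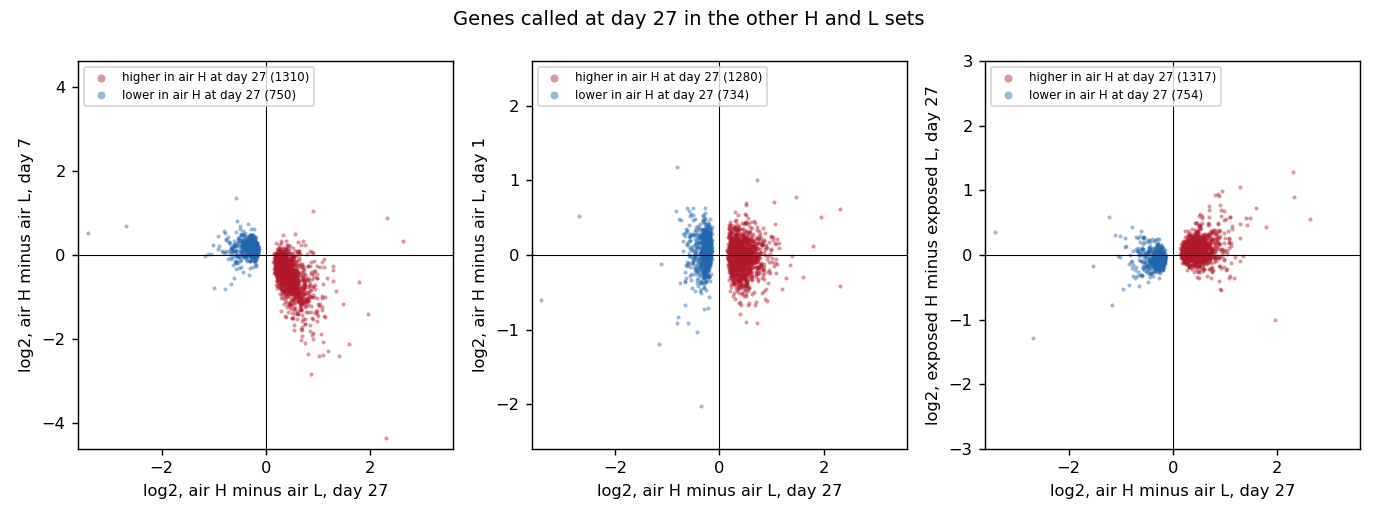
Each point is a gene called at day 27, with its log2 fold change air H minus air L at day 27 on the x axis and, on the y axis, the same contrast at day 7, at day 1, and exposed H minus exposed L at day 27. At day 7 the points fall in the opposite quadrants, with 8.30% of the same sign; at day 1 they straddle 0, and among exposed lungs 74.5% have the same sign.

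Between exposed H and exposed L lungs, which also differ in dose, no gene was called by edgeR (0%; 1086 at an unadjusted p below 0.05, and 2 called by DESeq2). Of the 2071 genes called between air lungs, 1543 (74.5%) had the same sign there, beside 58.7% of all genes, with medians of 0.07 for those higher in air H and -0.07 for those lower. A test of the air difference minus the exposed difference called no gene (0%; 1961 at an unadjusted p below 0.05, and 36 called by DESeq2), so a difference between them was not shown. Cilium genes, with 54 of 57 negative between air lungs, had 12 of 57 negative between exposed lungs, and elastic fibre genes had 10 of 15 positive there. Exposed H libraries 024 and 045, with 439393 and 149004 counts, were far shallower than the rest of that day.

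When every library of the series was scored on the first axis of the 12 air lungs, the day 27 air H lungs scored 11.4 to 17.9 and the air L lungs -26.0 to -5.85. Exposed H lungs of that day scored -18.3 to 8.66 and exposed L lungs -10.3 to 11.7. The -18.3 was the shallow library 045, with 149004 counts, and the next lowest exposed H lung scored -6.06. At day 7 air H lungs scored -16.6 to -0.548 and air L lungs 6.61 to 12.8, exposed H lungs -29.8 to -9.47 and exposed L lungs 6.02 to 11.2. The -29.8 was the shallow library 037, with 105453 counts, and the next lowest exposed H lung of day 7 scored -23.7. All 24 lungs of day 1 scored between 5.64 and 25.3. The air L lungs of day 27 and both H groups of day 7 thus lay on one side, and the air H lungs of day 27, both L groups of day 7 and all of day 1 on the other.

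**Figure D5:**
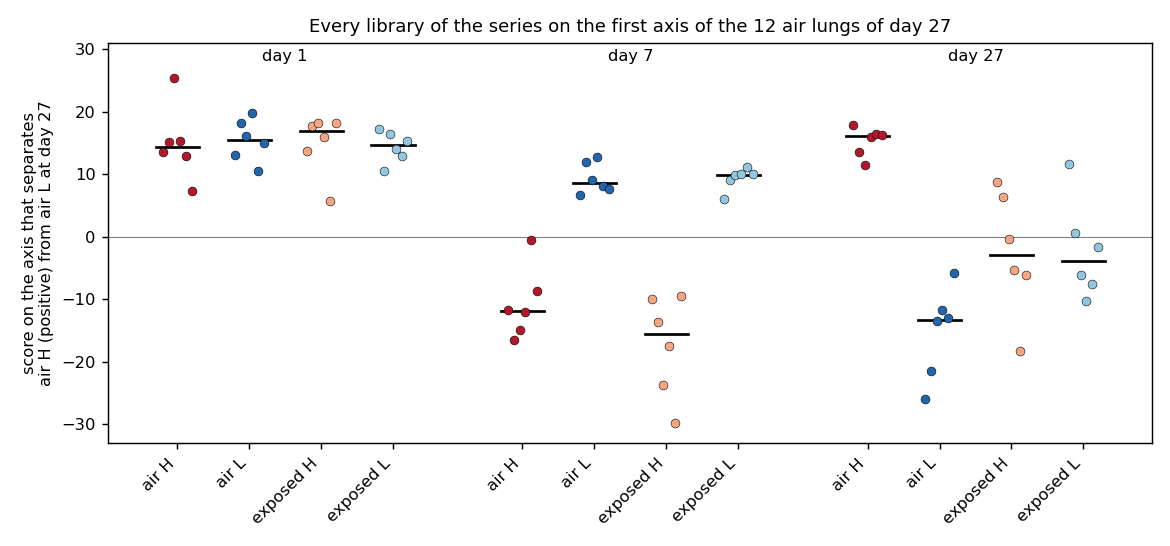
Score of each of the 72 libraries on the first principal component of the 12 air lungs of day 27, by day and group, 1 point a lung and a bar at the median, with positive values on the air H side. Air H lies above air L at day 27 and below it at day 7, where exposed H lies below exposed L as well, and the 4 groups of day 1 overlap. The lowest exposed H points of days 7 and 27 are the shallow libraries 037 and 045.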

How the data were processed

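The deposited table holds whole-number counts of reads per gene symbol for 72 rat lung libraries, and the 24 libraries of day 27, with those of days 7 and 1, were used. Per the labels' protocols, rRNA-depleted total RNA was made into stranded libraries. Per the submitters' processing notes, the tools were bcl2fastq 2.19, Trimmomatic 0.35, HISAT2 2.1.0, SAMtools 1.8 and HTSeq 0.6.1 with genome build Rnor_6.0. Which annotation HTSeq counted against, and whether by strand, was not given in the sources used here, so overlapping antisense genes may share reads. Each library is 1 animal.

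The 24 libraries of day 27 were fitted together in edgeR 4.0.16 (R 4.3.3), with 1 mean a group, TMM factors, genes kept by filterByExpr and a robust quasi-likelihood F test with Benjamini-Hochberg adjustment at 0.05. SEs were taken as the log2 fold change over the square root of F. Days were compared by interaction in the 48 libraries of each pair of days. CPM are scaled by TMM. Counts were simulated for 14652 genes, with known changes placed in air H alone and in a subset of genes above a CPM limit. On them the day 27 test recovered 95% of 2-fold and 76% of 1.5-fold changes. Of the calls 7.60% were false, above the 0.05 aimed at. Recovery for genes of lower counts was not measured. DESeq2 1.42.0, limma-voom 3.58.1, sva 3.50.0, other scalings, filters and thresholds and the omission of each lung were tried as alternatives.

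Genes were named by a rule: the 12 largest rises and 12 largest falls among called genes with non-overlapping ranges and a mean log2 CPM of at least 1, up to 5 called members of each list by p, and 7 markers. Beyond the rule, other members of a described list were named after their values were seen. The members and lists were chosen with earlier results of these data known, and list counts carry no test of their own. Gene symbols were used as deposited, with 11 of 713 list symbols found by a synonym. Promoters were matched by symbol for 67.6% of tested genes. Gene span came from the RefSeq table for GRCr8, matched for 88.7% of tested genes.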

Additional observations from a re-analysis of the deposited data

Results flagged for a closer look

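Single lungs stood apart from the other 5 of their group in 26 of 202 sets of 6 CPM values, by the gap to the nearest lung over the range of the 6 in Dixon's test at 95%. Chance sets apart about 1 group in 20. Air L 081 accounted for 6 of them, with high values of Scgb3a1 (95.9 CPM), Ggh (38.7 CPM), Mlf1 (29 CPM) and Agr2 (15.4 CPM) and low values of Fbn1 (439 CPM) and Col5a1 (118 CPM). Air H 020 was high in Hba1 (1908 CPM), Hba2 (1119.8 CPM), Slc4a1 (25.5 CPM) and Fmod (58.4 CPM). Air H 018 was high in Ager (1762 CPM), Timp2 (238 CPM), Muc1 (151 CPM) and Etv5 (104 CPM). Air H 017 was low in Scgb3a2 (62.2 CPM) and Efcab1 (11.2 CPM), air H 019 high in Cacybp (68.2 CPM), air H 041 high in Tlr9 (7.47 CPM), and air H 042 high in Nlgn2 (35.4 CPM) and Scamp3 (42.7 CPM). In air L, lung 083 was low in Ndufa4l2 (1.74 CPM) and high in Hsph1 (274 CPM), lung 085 high in Ctgf (135 CPM) and Fn1 (1022 CPM) and low in Etv5 (59.2 CPM), and lung 087 high in Agpat1 (33.2 CPM).

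The difference between air H and air L itself differed between day 27 and day 7 in 4830 genes and between day 27 and day 1 in 1454 genes (edgeR interaction, adjusted p below 0.05). As log2 differences, day 27 minus day 7, the named genes on the positive side were Rps16 (6.65), Ecm1 (3.79), Scamp3 (3.46), Agpat1 (3.17), Heyl (2.63), Nfic (2.54), Slc4a1 (2.43), Col1a1 (2.23), Nlgn2 (2.20), Ndufa4l2 (2.13), Egr1 (1.78), Tlr9 (1.72), Unc5d (1.24), Scgb1a1 (0.72) and Eln (0.55). Those on the negative side were Ggh (-1.31), Hspa8 (-1.15), Cpne7 (-1.14), Scgb3a2 (-1.02), Cacybp (-0.96), Hsph1 (-0.93), Efcab1 (-0.84), Tcp1-ps1 (-0.82), Hspb8 (-0.80), Chac2 (-0.75) and Chordc1 (-0.74). For day 27 minus day 1, Rps16 (2.71), Slc4a1 (1.64), Nlgn2 (1.47), Ecm1 (1.40), Scamp3 (1.31), Nfic (1.21), Col1a1 (1.05), Agpat1 (0.88) and Eln (0.55) were positive. Hsph1 (-1.44), Hspa8 (-1.26), Dnaja1 (-1.22), Tcp1-ps1 (-1.20), Chordc1 (-0.96), Cacybp (-0.90) and Efcab1 (-0.78) were negative.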

How the results depend on the processing

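No paired analysis was possible because animal numbers differ between all groups. All 2071 genes called at day 27 kept their sign in every alternative that fitted them. The count of calls was 786 at an adjusted p of 0.01, 0 with a fold limit of 1.5, 1143 with air H 017 to 020 only and 415 with air H 041 and 042 only, and 1490 to 2080 when 1 lung was left out; fewer animals or a stricter threshold were part of each. The higher and lower calls were 1335 and 501 with all 72 libraries in the fit, 1515 and 1152 with the 12 air libraries alone, and 1256 and 843 with no scaling factors.

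Airway calls, 16 in the report, were 9 with all 72 libraries in the fit, 2 at an adjusted p of 0.01, 0 with the fold limit and 1 (higher) with air H 041 and 042 only; leaving out 1 lung gave 4 to 24. Matrix calls, 24 in the report, were 11, 0 and 2 under the last 3 of those settings and 17 to 23 without 1 lung. Parenchyma calls, 16 in the report, were 4, 0 and 1, with 7 for air H 017 to 020 only and 10 to 16 without 1 lung. The 9 cilium calls became 2 with all 72 libraries, 15 with 1 surrogate variable, 16 with air H 017 to 020 only and 1 (higher) with air H 041 and 042 only. Heat shock calls, 11 in the report, were 7 with all 72 libraries, 7 with air H 017 to 020 and 1 with air H 041 and 042, and 8 to 11 without 1 lung. Ribosomal protein calls, 31 in the report, were 17 and 2 with those animals, and 21 to 34 without 1 lung. Respiratory chain calls, 15 in the report, were 25 with the 12 air libraries alone. Where no construction shows it, the cause was not tested.

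Between exposed lungs the 0 calls became 2 with DESeq2 and 1 without the libraries below 500000 counts, and the air minus exposed test gave 36 with DESeq2. The day comparisons stayed within 1.5 times of 4830 and 1454. Of 3641 values of 135 named genes under 27 settings 3085 kept their call, 546 lost it, 10 gained it and none changed sign. Of 113 named genes called, 74 stayed called whichever lung was left out. With 6 lungs a group at these depths, changes under 1.5-fold and genes of few counts, such as basal cell and mucin genes, were partly beyond reach.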

Other observations

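Of 17 TGF-beta and BMP genes 4 were called higher in air H at day 27 (23.53%, beside 8.92% of all genes) and none lower. Tgfb1, the ligand, had 21.1 to 26.3 CPM in air H and 12.0 to 19.4 CPM in air L (log2 0.62, SE 0.19, edgeR adjusted p 0.031), and its receptor Tgfbr2 had a median of 645 CPM in air H and 552 CPM in air L (log2 0.24, adjusted p 0.0083). The inhibitor Smad7 (0.29) and the receptor Acvrl1 (0.17) were the other 2. Of these calls that of Tgfbr2 alone held in all 12 leave-outs of 1 lung. Tgfb1 was lost without any 1 of air H 017, 041 or 042 or air L 081, 083, 084 or 086, Smad7 without air H 020 or air L 081, 083 or 086, and Acvrl1 without air H 018, 019, 020, 041 or 042 or air L 081, 083 or 086 (adjusted p up to 0.13). The Notch targets Heyl (log2 1.47) and Hey1 (log2 0.55, adjusted p 0.013) and the mural cell receptor Notch3 (log2 0.42, adjusted p 0.016) were called higher; Notch genes had no list, and these 3 were set together after their values were seen.

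Of 16 clock genes 2 were called higher (12.5%), a share near that of all genes. Bhlhe40, a repressor in the clock loop, had 28.8 to 40.4 CPM in air H and 16.1 to 27.7 CPM in air L (log2 0.71, SE 0.13, adjusted p 0.00078), and Npas2, a partner of Bmal1, was at 0.49 (adjusted p 0.0079). Slc2a1, the glucose transporter among 10 hypoxia genes, was the 1 called there, at 17 to 20.9 CPM in air H and 22.3 to 30.1 CPM in air L (log2 -0.43, adjusted p 0.0043). Adventitial fibroblast genes split, with Igfbp4 (log2 0.39) and Fndc1 (0.86) called higher and Dpt (-0.48) lower, a call lost without air H 019, 020 or 041 or air L 081, 083, 084 or 085 (adjusted p up to 0.0764).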
